A study of Mus musculus with 2 samples.

Results

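The genes of the RNA interference and microRNA machinery were measured in Neuro2a cells, a mouse neuroblastoma line, after transfection with an siRNA. The set holds 10 genes: the Argonautes Ago1, Ago2, Ago3 and Ago4, the nucleases Dicer1 and Drosha, and their partners Dgcr8, Xpo5, Tarbp2 and Prkra. Its members were all probe sets on the array annotated to exactly 1 of these symbols, which gave 27 probe sets out of 34945 with 1 symbol, and 10 genes out of 18193. One array was hybridised with RNA of cells that received an siRNA against Tmem132a (also named mKIAA1583), and 1 with RNA of cells that received a non-specific control siRNA. Both groups therefore carried a transfected siRNA, and no untransfected cells were analysed here. The siRNA sequences, doses and times, and the number of cultures behind each RNA, are not given in the sources used here.

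Small RNAs act through a short chain of proteins. In the nucleus, the RNase III enzyme DROSHA and its RNA-binding partner DGCR8 cut hairpins out of primary microRNA transcripts, and exportin 5, the product of Xpo5, carries the hairpins to the cytoplasm. There DICER1, another RNase III enzyme, trims them with the help of the double-stranded RNA-binding proteins TARBP2 (TRBP) and PRKRA (PACT), and 1 strand is loaded into an Argonaute protein. A synthetic siRNA duplex enters at the loading step, so that it uses the Argonautes but needs neither DROSHA nor exportin 5. AGO2 is the mammalian Argonaute best known for cutting a fully paired target RNA, the step on which siRNA knockdown rests.

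Total RNA was read on Affymetrix Mouse Genome 430 2.0 arrays, and each value is a MAS5 signal, the authors' summary of a probe set's brightness on a linear scale. Each group had a single array, which limits the precision: values carry no replicate error, and the groups could not be tested against each other. Differences are given as log2 ratios, Tmem132a siRNA over control siRNA, and a gene's value is the mean over its probe sets with a mean signal of at least 77.25, the median of all probe sets. By this rule 10678 genes were measured. Probe sets of 1 gene had a pooled SD of 0.39 around their gene's mean over 5072 genes, and this SD divided by the square root of the number of probe sets is quoted below as the technical error. It covers disagreement between probe sets within the same RNAs, not variation between cultures. Fewer cells of a type and less RNA per cell cannot be told apart in such samples.

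The targeted gene had a signal of 435.6 on the Tmem132a siRNA array and 1825.5 on the control siRNA array, a log2 ratio of -2.07. Of the 15 neuroblastoma and neuronal markers with a probe set, 12 were measured, and all 12 had ratios below 0, with a median of -0.38. Of all genes measured, 51.8% had ratios above 0, and their median was 0.02. The summed signal of the 15 markers, by the brightest probe set of each, was 40443 with the Tmem132a siRNA and 49493.3 with the control siRNA. Ache, which encodes acetylcholinesterase, was the only measured one of these markers past 2-fold, at -1.19. It had 119.3 on the Tmem132a siRNA array and 272.1 on the control siRNA array. No marker was at 0. The lowest on the Tmem132a siRNA array was Chat, with 10 against 46.4 with the control siRNA, and the lowest on the control siRNA array was Nefm, with 13.1 with the Tmem132a siRNA against 2.3. Of 31 markers of other cell types (immune, glial, epithelial, endothelial and fibroblast), 3 were measured. The highest signal among the 31 was 158.5 with the Tmem132a siRNA and 169.8 with the control siRNA. Summed over all 31, most of them below the filter, the signals were 1533.2 with the Tmem132a siRNA and 1182.9 with the control siRNA. Of the 3 measured, Epcam, an epithelial adhesion gene, was past 2-fold at 1.04. This came from 1447899_x_at, a kind that can share sequence with other transcripts, with 146.1 on the Tmem132a siRNA array and 70.9 on the control siRNA array. The other Epcam probe set, 1416579_a_at, lay below the filter and pointed the other way. It had 5.5 with the Tmem132a siRNA and 25.2 with the control siRNA. What part these differences had in the values below was not tested.

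The machinery as a set did not move one way. Of the 10 genes, 9 were measured, with Ago4 too dim, and 5 of the 9 had ratios above 0, as did 51.8% of all genes, and 4 below 0. Their median was 0.07, beside 0.02 for all 10678 genes. None of the 9 differed by 2-fold, where 4.54% of all genes did. No member was at least 1.5-fold higher, beside 8.82% of all genes, and 2 (Ago1 and Prkra) were at least 1.5-fold lower, beside 9.11% of all genes. Among genes as bright as the members these shares were 2.79% for 2-fold, 7.03% for 1.5-fold higher and 7.83% for 1.5-fold lower. With 9 genes, 2 such members are too few to set apart from that background. The members' ratios had an SD of 0.48, against 0.49 over all genes measured. It was 0.43 over the 6996 genes as bright as the members, that is, with a brightest probe set between 234.3 and 3393.8.

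**Figure D1:**
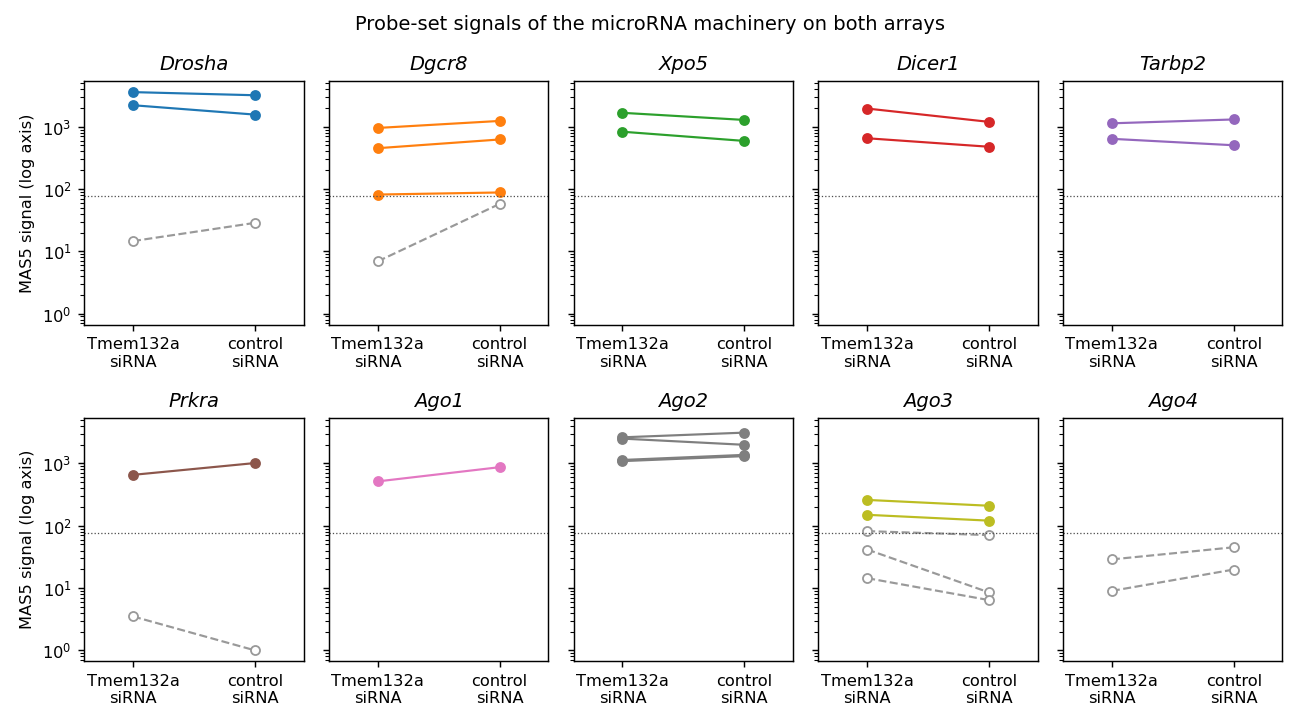
MAS5 signals (log axis) of all 27 probe sets of the 10 genes on the Tmem132a siRNA array (left points) and the control siRNA array (right points), 1 line per probe set. Filled points are the 19 probe sets past the signal filter, open grey points the 8 below it, and the dotted line is the filter at 77.25. Both Dicer1, both Xpo5 and both bright Drosha probe sets slope down from the Tmem132a siRNA array to the control siRNA array, and the filled points of Ago1, Prkra and Dgcr8 slope up.

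In the nuclear step, Drosha and Dgcr8 lay on opposite sides of 0. Drosha, the nuclease, was read by 1428656_at at 2211.1 with the Tmem132a siRNA and 1564.5 with the control siRNA. The probe set 1438505_s_at, a kind that can share sequence with other transcripts, gave 3590.1 with the Tmem132a siRNA and 3197.6 with the control siRNA. Both were higher with the Tmem132a siRNA, by different amounts (log2 ratios of 0.50 and 0.17), and the gene value was 0.33 with a technical error of 0.28. A dim probe set, 1438440_at, had 14.6 with the Tmem132a siRNA and 28.6 with the control siRNA. With no signal filter it entered the mean, and the value of Drosha was then -0.10.

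Dgcr8, the RNA-binding partner, was lower in each of its measured probe sets. Its brightest, 1455311_at, had 954.9 with the Tmem132a siRNA and 1237.1 with the control siRNA. The next, 1435439_at, annotated with the same source sequence, had 451.9 with the Tmem132a siRNA and 623.4 with the control siRNA. Close to the filter, 1422981_at had 81.5 with the Tmem132a siRNA and 88 with the control siRNA. The ratios ran from -0.46 to -0.11, and the gene value was -0.32 with a technical error of 0.23. A probe set below the filter, 1446169_at, had 6.9 with the Tmem132a siRNA and 57.6 with the control siRNA, and its inclusion brought the gene value to -0.73. At the value of -0.32 for Dgcr8, 21.2% of all genes measured were as far or farther below 0. At that of 0.33 for Drosha, 21.3% were as far or farther above 0. The difference between Drosha and Dgcr8 was 0.65 on the log2 scale, with a technical error of 0.36.

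The Dgcr8 transcript is itself a known substrate of this step: DROSHA and DGCR8 cut hairpins in it, which lowers the transcript. Hairpins of miR-1306 and miR-3618 lie inside the bounds of Dgcr8 in RefSeq (GRCm38.p6), and their mature forms are shown because they mark these hairpins. Capitals mark the seed, bases 2 to 8, by which a microRNA pairs with its targets.
mmu-miR-1306-5p: cACCACCUccccugcaaacgucc
mmu-miR-1306-3p: aCGUUGGCucugguggugaug
mmu-miR-3618-5p: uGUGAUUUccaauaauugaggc
mmu-miR-3618-3p: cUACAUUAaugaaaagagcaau
The 4 seeds differ from each other. The arrays did not measure these small RNAs, so whether cutting of the Dgcr8 transcript differed between the cultures was not tested.

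Xpo5 and Dicer1, of export and cytoplasmic cleavage, were higher with the Tmem132a siRNA in both of their probe sets. Xpo5, the hairpin exporter, had 1670.2 with the Tmem132a siRNA and 1283.8 with the control siRNA by 1428560_at. Its other probe set, 1451468_s_at, had 830.7 with the Tmem132a siRNA and 591.3 with the control siRNA. The ratios of 0.38 and 0.49 agreed within the technical error, and the gene value was 0.43 ± 0.28. Of all genes measured, 15% were as far or farther above 0.

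Dicer1 had the largest ratio above 0 among the 9 genes. Its probe set 1427941_at had 1955.7 with the Tmem132a siRNA and 1195.8 with the control siRNA, and 1460571_at had 652.3 with the Tmem132a siRNA and 476.7 with the control siRNA. Both lay higher with the Tmem132a siRNA, at log2 ratios of 0.71 and 0.45. The gene value of 0.581 ± 0.28 fell just short of the 1.5-fold size, which is 0.585 on this scale, and 954 genes (8.93%) were as far or farther above 0. By the brightest probe set, and after quantile normalization, Dicer1 passed 1.5-fold.

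Of the partners of DICER1, Prkra had a gene value of -0.63 and Tarbp2 one of 0.07, beside 0.58 for Dicer1. Prkra, which encodes PACT, also known as a protein activator of the kinase PKR, had 654.8 with the Tmem132a siRNA and 1012.4 with the control siRNA by 1448923_at, a log2 ratio of -0.63. This single probe set has a technical error of 0.39, and 7.97% of genes were as far or farther below 0. The other Prkra probe set, 1447737_at, had 3.5 with the Tmem132a siRNA and 1 with the control siRNA, too dim to compare, and its inclusion without a filter gave a gene value of -0.31. Tarbp2, which encodes TRBP, the other double-stranded RNA-binding partner, had probe sets on both sides of 0. The probe set 1423616_at had 1133.5 with the Tmem132a siRNA and 1306.7 with the control siRNA. The cross-matching kind, 1438952_x_at, had 638.8 with the Tmem132a siRNA and 503.7 with the control siRNA. The gene value of 0.07 ± 0.28 thus has no settled direction. Dicer1 minus Prkra was 1.21 on the log2 scale with a technical error of 0.48, and Dicer1 minus Tarbp2 was 0.51 with one of 0.39. Prkra minus Tarbp2 was -0.70 with a technical error of 0.48.

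The kinase that PACT activates, Eif2ak2 (PKR), was also read on both sides of 0, with probe-set ratios from -0.66 to 0.33 and a gene value of -0.24. Its brightest probe set had 222.1 with the Tmem132a siRNA and 351.5 with the control siRNA.

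**Figure D2:**
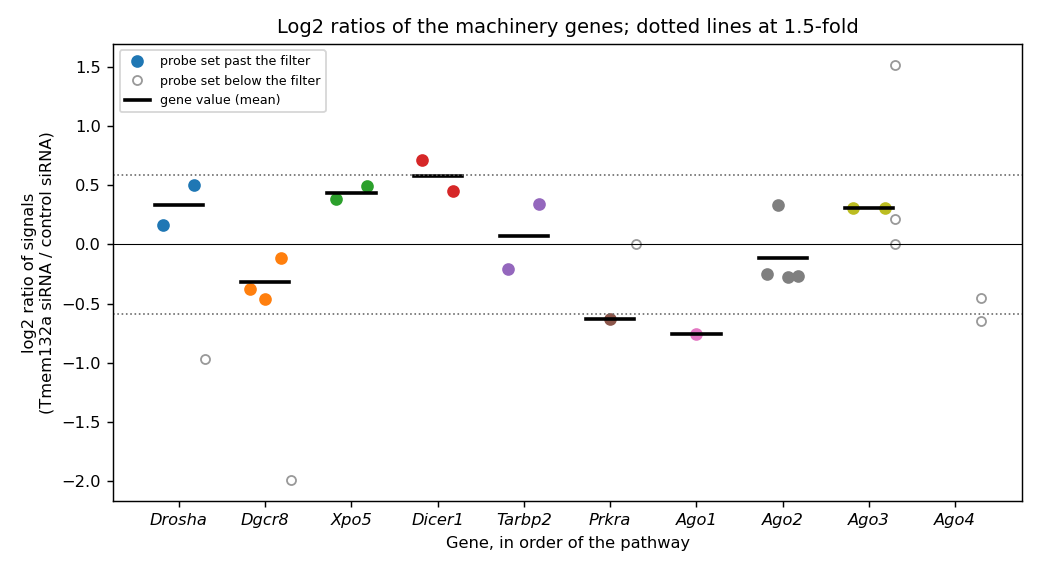
Log2 ratios of signals, Tmem132a siRNA over control siRNA, for the 10 genes in the order of the pathway. Filled points are probe sets past the filter, open points those below it (signals under 14.5 set to that floor), black bars the gene values, and dotted lines mark 1.5-fold. The bars of Ago1 and Prkra lie below the lower line, and the bar of Dicer1 lies just under the upper one. Open points of Dgcr8, Drosha and Ago4 also lie below the lower line. An open point of Ago3 and a filled point of Dicer1 lie above the upper one.

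The measured Argonautes, which hold the small RNA, had gene values from -0.76 to 0.31. Ago1 had the lowest ratio of the set. Its only probe set, 1434331_at, had 514.2 with the Tmem132a siRNA and 869.2 with the control siRNA, 1.69 times lower with the Tmem132a siRNA. Its log2 ratio was -0.76, with a technical error of 0.39. Of all genes measured, 551 (5.16%) were as far or farther below 0. The ratio lay between -0.76 and -0.68 in all 10 alternative settings. With 1 bright probe set, the settings that change the filter, leave out the floor or choose among probe sets could not alter it. No second probe set was there to check it.

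Ago2, the slicing Argonaute, was read by 4 bright probe sets that did not all point one way. Its brightest, 1455389_s_at, had 2621 with the Tmem132a siRNA and 3117.5 with the control siRNA. The probe set 1455294_at had 1135.2 with the Tmem132a siRNA and 1370.2 with the control siRNA, and 1435636_at had 1087.6 with the Tmem132a siRNA and 1308.2 with the control siRNA. These 3 were lower with the Tmem132a siRNA by nearly the same amount, at -0.25, -0.27 and -0.27. Of them, 1455389_s_at and 1435636_at are annotated with the same source sequence, so their agreement is not independent. The other one, 1426366_at, had 2499.6 with the Tmem132a siRNA and 1988.6 with the control siRNA, a ratio of 0.33. The gene value was -0.11 ± 0.20, a difference smaller than its technical error.

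Ago3 was dimmer and slightly higher. Its probe set 1435904_at had 259.4 with the Tmem132a siRNA and 209.2 with the control siRNA, and 1441089_at had 149.6 with the Tmem132a siRNA and 120.6 with the control siRNA. Both gave a ratio of 0.31, and the gene value was 0.31 with a technical error of 0.28. As far or farther above 0 lay 23.1% of all genes measured. Another probe set of Ago3, 1441063_at, lay just below the filter with 81.8 on the Tmem132a siRNA array and 70.7 on the control siRNA array. The remaining 1458476_at and 1442009_at had 41.5 and 14.4 with the Tmem132a siRNA, against 8.5 and 6.4 with the control siRNA, too dim to compare. Ago4 passed with neither probe set: 1453289_at had 28.8 with the Tmem132a siRNA and 45.1 with the control siRNA, and 1429779_at had 9 with the Tmem132a siRNA and 19.8 with the control siRNA.

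Ago3, Ago1 and Ago4 are consecutive entries on chromosome 4 in the RefSeq gene table, with no other gene listed between them. Ago3 minus Ago1 was 1.07 on the log2 scale, with a technical error of 0.48, and Ago2 minus Ago1 was 0.64, with one of 0.44. Ago3 minus Ago2 was 0.43, with a technical error of 0.34. The median of the 3 measured Argonautes was -0.11, and that of the 6 genes of processing and export was 0.20.

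The only internal check on direction came from genes with several probe sets. Of the 7 members with at least 2 measured probe sets, 5 had all of them on the same side of 0: Dicer1, Xpo5, Drosha and Ago3 above it and Dgcr8 below it. Among all 5072 such genes the share was 55.3%, with 29.6% all above 0 and 25.6% all below. Ago2 and Tarbp2 were the members whose probe sets disagreed in sign.

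**Figure D3:**
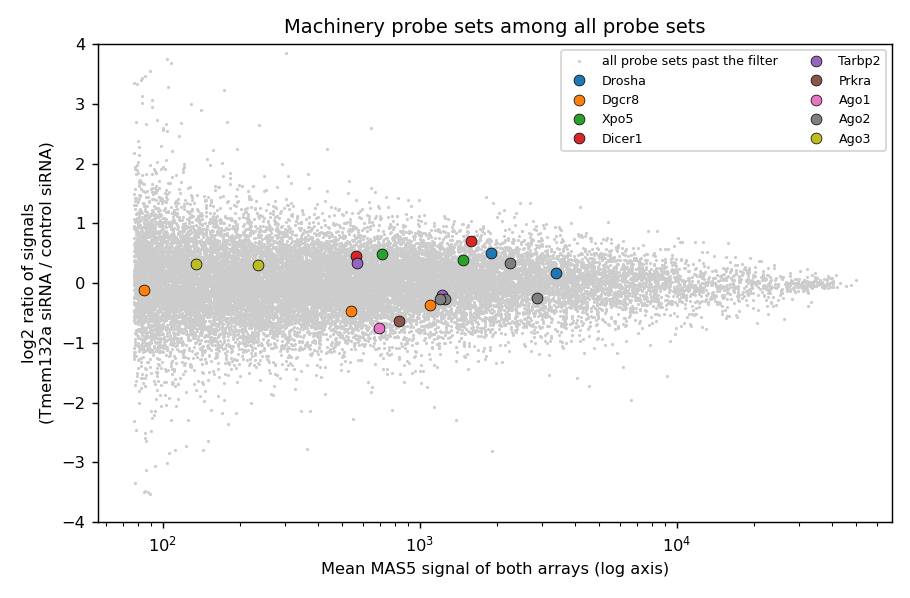
Log2 ratio of signals, Tmem132a siRNA over control siRNA, against the mean signal of both arrays (log axis) for all 22519 probe sets past the filter (grey) and the 19 of the machinery genes (coloured). Every coloured point lies inside the grey cloud, between -0.76 and 0.71, and 1 grey point lies beyond the plotted range.

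Promoter windows from RefSeq (GRCm38.p6), 250 bases before to 50 after the start site, were found for 9 of the 10 genes, all but Ago2. Those of Dicer1 and Ago1 are shown because these were the members with the highest and the lowest ratio. Capitals mark matches, on either strand, to GGGCGG (the GC box bound by SP1), CCAAT (the CCAAT box) and the NRF1 site (GCGC, any base, TGCGC).
Dicer1 promoter, chr12:104751903-104752202, minus strand: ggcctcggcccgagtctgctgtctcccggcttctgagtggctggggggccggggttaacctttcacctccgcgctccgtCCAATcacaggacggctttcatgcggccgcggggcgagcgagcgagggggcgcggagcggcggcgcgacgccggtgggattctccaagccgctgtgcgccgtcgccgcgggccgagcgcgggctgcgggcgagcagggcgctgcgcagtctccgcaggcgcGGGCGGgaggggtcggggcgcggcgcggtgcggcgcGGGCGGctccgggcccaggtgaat
Ago1 promoter, chr4:126468582-126468881, minus strand: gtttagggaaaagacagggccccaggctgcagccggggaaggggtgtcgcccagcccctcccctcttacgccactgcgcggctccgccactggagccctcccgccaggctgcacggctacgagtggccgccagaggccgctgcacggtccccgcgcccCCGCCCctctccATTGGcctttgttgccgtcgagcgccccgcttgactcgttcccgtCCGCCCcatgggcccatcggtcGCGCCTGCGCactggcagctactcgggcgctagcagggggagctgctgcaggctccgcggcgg
Both windows are rich in G and C, at 77.3% for Dicer1 and 73% for Ago1, against a median of 61.3% over 8713 promoters of measured genes. The Dicer1 window held 2 GC boxes and 1 CCAAT box, and the Ago1 window held 2 GC boxes, 1 CCAAT box and 1 NRF1 site. The GC box was in 8 of the 9 member windows and in 66.7% of the 8713. The CCAAT box was in 5 windows against 39.1%, the NRF1 site in 2 (Ago1 and Xpo5) against 11.5%, and the ETS site CCGGAAG in 2 (Ago3 and Drosha) against 19.6%. No member window held TGATGNAA (the composite site of ATF4), TGACGTCA (the cyclic AMP response element), TGACNNNGC (the antioxidant response element), CACGTG (the E-box) or TATAAA (the TATA box). Their shares over the 8713 were 2.19%, 3.56%, 14.7%, 10.5% and 6.53%. Overlapping matches of 1 motif were each counted.

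Genes that work beside the machinery were grouped by role. The nuclear partners of microRNA processing, which help to choose, cut or edit primary transcripts, had a median of -0.14 over 16 of 19 genes. None was 1.5-fold different, beside 8.82% of all genes higher and 9.11% lower. The members with the largest differences were Khsrp, an RNA-binding protein that promotes processing of some microRNAs, at -0.51, and Ncbp2, a subunit of the nuclear cap-binding complex, at -0.47. The 3 probe sets of Ncbp2 gave -0.46 to -0.48, while those of Khsrp ran from -0.90 to 0.11. Its brightest probe set, 1436813_x_at, had 877.6 with the Tmem132a siRNA and 812.8 with the control siRNA, opposite to the other 2.

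Chaperones and RISC cofactors had a median of -0.04 over 13 of 16 genes. No gene of this list was 1.5-fold different, beside 8.82% of all genes higher and 9.11% lower. Hsp90aa1, the chaperone that holds Argonaute open for loading, was at -0.02. Tsnax, which with translin (Tsn) forms the C3PO complex that helps remove the cut passenger strand, had a ratio of 0.53. Its brightest probe set had 2103.1 with the Tmem132a siRNA and 1604.9 with the control siRNA. Dhx9, an RNA helicase found with RISC, had a ratio of -0.45.

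Genes of small RNA tailing and turnover had a median of -0.04 over 11 of 12 genes. In each direction 1 gene was past 1.5-fold, beside 8.82% of all genes higher and 9.11% lower. Lin28a, the RNA-binding protein that blocks maturation of let-7, had 4092.7 with the Tmem132a siRNA and 6434 with the control siRNA by 1421749_at. By 1437752_at it had 933.3 with the Tmem132a siRNA and 1448.4 with the control siRNA. The ratios of these probe sets were nearly equal, with a gene value of -0.64. Parn, a poly(A)-specific ribonuclease, was higher by a like amount at 0.66. Its brightest probe set, 1437334_x_at, is of the kind that can share sequence with other transcripts. That probe set had 1231.9 on the Tmem132a siRNA array and 771.1 on the control siRNA array. The other Parn probe set, 1425422_a_at, gave a ratio of 0.65.

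The effectors downstream of Argonaute form the longest measured list of these, and 2 of its genes, Cnot6 and Wtip, differed by 2-fold, beside 4.54% of all genes. Of 32 genes of GW182 proteins, deadenylation and decapping, 30 were measured, with a median of 0.04. At least 1.5-fold differences were seen upwards in 2 and downwards in 3, shares close to the 8.82% and 9.11% of all genes. Cnot6, a deadenylase subunit of the CCR4-NOT complex, was lower in 4 of 4 probe sets. Its brightest, 1426685_a_at, had 2466.8 with the Tmem132a siRNA and 4926 with the control siRNA. The probe set 1426682_at had 1627.7 with the Tmem132a siRNA and 4741.3 with the control siRNA. The gene value was -1.08 ± 0.20, over probe-set ratios from -1.54 to -0.85, and by the brightest probe set alone it was -0.998, just under 2-fold. Wtip, a LIM protein of the Ajuba family linked to microRNA silencing, had 152.3 with the Tmem132a siRNA and 392.6 with the control siRNA by its only probe set, a ratio of -1.37. The GW182 genes Tnrc6a, Tnrc6b and Tnrc6c, whose proteins bind Argonautes directly, lay at 0.04, 0.04 and -0.04.

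**Figure D4:**
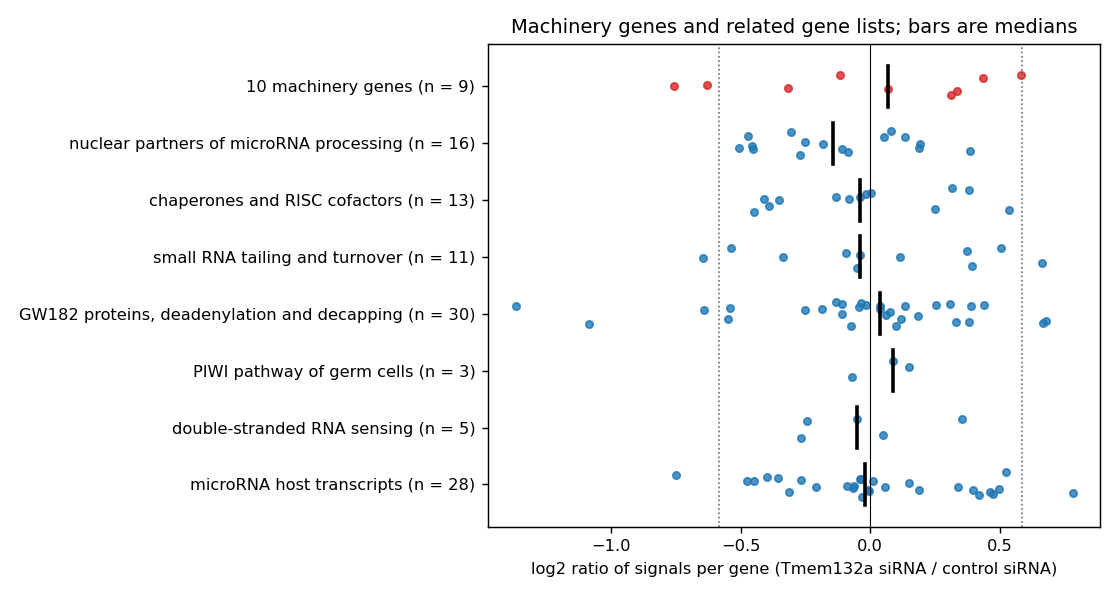
Log2 ratios per gene, Tmem132a siRNA over control siRNA, for the 9 measured machinery genes (red) and 7 related lists (blue), with n the number of genes measured, black bars the medians and dotted lines 1.5-fold. Medians lie between -0.14 and 0.09, and the points of Wtip and Cnot6 stand farthest to the left.

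The PIWI pathway, a small RNA system of germ cells, served as a contrast. Of its 13 genes with a probe set, 3 were measured, and Piwil1, Piwil2 and Piwil4 were all below the filter. Asz1, a germ-cell protein of that pathway, was bright, with 6497.8 on the Tmem132a siRNA array and 5796.3 on the control siRNA array, and its gene value was 0.15. Tdrkh, a mitochondrial Tudor protein that binds PIWI proteins, was at 0.09. Genes of double-stranded RNA sensing had a median of -0.05 over 5 of 11 genes. Not 1 of the 5 was 1.5-fold different, beside 8.82% of all genes higher and 9.11% lower. So few genes cannot be set apart from that background. Mavs, the mitochondrial adaptor of RNA sensing, was at 0.35 and Oas1a, an oligoadenylate synthetase, at -0.27.

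Transcripts that host microRNA hairpins, the raw material of the machinery, had a median of -0.02 over 28 of 35 genes, again with 1 gene past 1.5-fold in each direction. Mir22hg, the host of miR-22, had 384.5 with the Tmem132a siRNA and 223.9 with the control siRNA, a ratio of 0.78 from 1 probe set. Meg3, an imprinted non-coding RNA whose bounds hold miR-770, had 201.6 with the Tmem132a siRNA and 358.9 with the control siRNA by its brightest probe set. Its gene value was -0.75 over 4 measured probe sets of 11, from -1.28 to -0.19, and -0.35 with no filter. Over all 431 measured genes with a hairpin inside their RefSeq bounds, strand not considered, the median was -0.04. Ratios reached 1.5-fold upwards in 30 (6.96%) and downwards in 44 (10.2%), beside 8.82% and 9.11% of all genes.

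Some microRNAs are known to act on the machinery itself: miR-103 and miR-107 lower Dicer1, and let-7 lowers it in human cells. Their sequences are shown beside that of miR-22-3p, with the seed in capitals, because their hosts were measured here.
mmu-miR-103-3p: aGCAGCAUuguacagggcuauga
mmu-miR-107-3p: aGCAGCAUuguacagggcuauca
mmu-let-7f-5p: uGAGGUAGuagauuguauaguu
mmu-miR-98-5p: uGAGGUAGuaaguuguauuguu
mmu-miR-22-3p: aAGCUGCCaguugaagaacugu
The seed GCAGCAU is shared by miR-103-3p and miR-107-3p, and GAGGUAG by let-7f-5p and miR-98-5p. The hosts of the first pair are the pantothenate kinase genes, with Pank1 at 0.19, Pank2 at -0.06 and Pank3 at 0.47. The probe sets of Pank3 disagreed in size: 1433613_at had 2769.4 with the Tmem132a siRNA and 2740.3 with the control siRNA, and 1426259_at had 408.2 with the Tmem132a siRNA and 214.4 with the control siRNA. Huwe1, a ubiquitin ligase gene that hosts let-7f-2 and miR-98, was at -0.07 over 5 probe sets. A host's signal need not follow its mature microRNA, which these arrays did not measure.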

How the data were processed

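Total RNA of Neuro2a cells was isolated with Trizol and labelled with biotin, per the labels' protocols. The deposited values are the authors' MAS5 signal intensity per probe set on a linear scale, per the submitters' processing notes. Version and scaling are not given in the sources used here. The authors' detection calls were not used here. Groups were taken from the sample titles. For the Tmem132a siRNA array the description field carries the control's wording, against its title and treatment.

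Of 45101 probe sets, 64 controls were left out. The platform annotation gave 1 symbol to 34945, several to 932 and none to 9160. Both arrays were scaled to 1 trimmed mean (2% trimmed, 497.4 on both before scaling), probe sets with a mean signal below the median (77.25) were left out of gene values, which kept 22519, and signals below the 20th percentile (14.5) were set to that floor. Printed signals are as deposited. No test was made between single arrays, and differences were described by size (1.5-fold, 2-fold).

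Named genes were all members, Tmem132a, and of each list the genes past 2-fold or else the 2 with the largest difference. Other genes were named for their role after their values were seen. Members, lists and rules were chosen with earlier results of these data known, and promoter motifs and microRNA hosts of Dicer1 regulators after seeing the files. Computation used Python 3.11.15, numpy 2.4.6, pandas 2.3.3, scipy 1.17.1, statsmodels 0.14.6 and matplotlib 3.10.9, and was tested on simulated data. The 10 alternatives were deposited signals without scaling, centring on a median ratio of 0, quantile normalization, loess (span 0.3), no filter, a 75th percentile filter (462.8), no floor, a pseudocount of 79.2, the brightest probe set, and no x, s or a probe sets.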

Additional observations from a re-analysis of the deposited data

How the results depend on the processing

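Leaving out the rescaling or the floor, centring and loess changed no count of members past 1.5-fold or 2-fold. The shares of all genes past 1.5-fold there were 8.58% to 8.83% higher and 9.1% to 9.37% lower. One member (Dicer1) was at least 1.5-fold higher after quantile normalization and by the brightest probe set, where the count was 1 each. In these settings 8.89% and 9.29% of all genes were at least 1.5-fold higher. With the pseudocount 1 member was at least 1.5-fold lower, beside 5.16% of all genes, and Prkra was at -0.57. With no filter the count lower was 2 again, beside 12.1% of all genes. These 2 were Ago1 and Dgcr8, with Prkra at -0.31. The members' median changed sign in 4 settings: with no filter (-0.11), with the 75th percentile filter (-0.023), by the brightest probe set (-0.21) and when x, s and a probe sets were left out (-0.070). Likewise that of the processing genes was -0.016 with no filter and -0.019 by the brightest probe set. The Argonaute median was -0.44 with the 75th percentile filter, which removes Ago3. Nuclear partners were at -0.30 when those probe sets were left out, and tailing and turnover at 0.24 with the 75th percentile filter and 0.15 by the brightest probe set. The cause was not tested where none is named. Ago1, Ago2, Ago3, Dgcr8, Dicer1, Prkra and Xpo5 kept their sign wherever they had a value. Drosha changed sign with no filter, and Tarbp2 did so by the brightest probe set and when x, s and a probe sets were left out (-0.21 in each). With no filter Ago4 had a value, -0.55, from probe sets with signals of 45.1 and less. Ago3, Wtip, Mir22hg, Meg3, Mavs and Oas1a had no value with the 75th percentile filter, nor Parn when x, s and a probe sets were left out. No paired analysis was possible because there was 1 array per group. Signals below about 77 set a limit to what could be compared for Ago4 and the PIWI genes.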

Other observations

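Genes that work as related pairs around the machinery did not always lie on the same side of 0. The 13 pairs compared were chosen after their values were seen, so they are given as values only. Cnot6l, the paralogue of the deadenylase gene Cnot6, had a gene value of 0.44, with all 4 probe sets above 0 (0.12 to 0.90), where Cnot6 was at -1.08 with all 4 below 0. Its brightest probe set had 2048.7 with the Tmem132a siRNA and 1886.5 with the control siRNA. Cnot6 minus Cnot6l was -1.52 on the log2 scale, with a technical error of 0.28, which made it the largest difference of the 13. Dcp1a and Dcp1b, paralogous cofactors of the decapping enzyme, lay at -0.55 and 0.68 from 1 measured probe set each. Tsn and Tsnax, the subunits of C3PO, were at -0.35 over 4 probe sets and 0.53 over 2. The RNA-editing genes Adarb1 and Adar were at -0.45 and 0.39, over 3 probe sets each, though those of Adarb1 ran from -0.98 to 0.26.

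Some other pairs showed little difference. Cnot7 and Cnot8, the other deadenylase paralogues, were at -0.02 and -0.11, the uridylyltransferase genes Tut4 and Tut7 at -0.05 and -0.09, and the poly(A)-binding protein genes Pabpc1 and Pabpc4 at -0.07 and -0.19. Lin28a, at -0.64, and Trim71, at 0.37, both known as targets of let-7 in early development, differed by 1.02 with a technical error of 0.39. Xrn1, the exonuclease that degrades decapped RNA, was at 0.66 over 2 probe sets, while Dcp2, the decapping enzyme itself, was at -0.64 over probe sets that gave -1.19 and -0.09.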
